A study of Drosophila melanogaster with 15 samples.

Results

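Oxidative phosphorylation couples the oxidation of NADH and succinate to the making of ATP in the inner mitochondrial membrane. Electrons enter at complex I (NADH dehydrogenase) or complex II (succinate dehydrogenase), pass through complex III (the cytochrome bc1 complex) and cytochrome c to complex IV (cytochrome c oxidase), and the proton gradient built on the way drives complex V (ATP synthase). Most subunits are encoded in the nucleus and imported, a small core is encoded in the mitochondrial genome, and Drosophila also carries duplicated copies of several nuclear subunit genes that are known for expression in the testis. The absorptive cells of the larval midgut are an energy-demanding epithelium that feeds the growing animal.

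The nuclear-encoded subunits were examined in bulk mRNA-sequencing of midguts from w1118 larvae, a white-eyed laboratory strain, raised on a yeast-only diet at 25 °C and dissected 2, 3 or 4 days after egg laying. These ages were early L2, late L2 and early L3, where L2 and L3 are successive larval stages, and each was represented by 5 biological replicates of 60, 30 and 10 pooled midguts, respectively. All groups had the same genotype and no treatment, and larvae were not separated by sex. Members were the entries of the expression table whose symbol begins with ND-, SdhA to SdhD, UQCR-, COX and a digit, or ATPsyn, which gave 72 of 12133 entries. Of these, 63 carried the name of a canonical subunit (34 of complex I, 4 of complex II, 6 of complex III, 8 of complex IV and 11 of complex V) and 9 were testis-type paralogs, recognised by a symbol that repeats another subunit's name followed by L. A further 15 symbols of the annotation that fit the same pattern had no entry among the members and were not analysed here.

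Library totals were between 23981806 and 33902298 reads, and levels were given as CPM, that is, reads scaled to a common library total. In a principal component analysis late L2 replicate 4 and early L3 replicate 1 lay apart from the rest of their groups, so counts of members are also given without them where they move. Enterocyte markers had a like summed level in all stages, at 1136 to 1244 CPM in early L2, 1108 to 1224 CPM in late L2 and 1183 to 1355 CPM in early L3. The sum does not show the single markers. In the limma fit described below, 1 of the 5 was higher and 1 lower from late L2 to early L3 at an adjusted p under 0.05. Of all entries, 17.0% passed as higher and 37.0% as lower. Markers of visceral muscle, a tissue rich in mitochondria that surrounds the gut, summed to 5620 to 8351, 4890 to 6006 and 4593 to 5379 CPM in the same order. The part of either cell type in the results below was not tested. Because the libraries are bulk RNA, fewer cells of a type and less RNA per cell cannot be told apart.

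The canonical subunits took 2.47 ± 0.099% of all reads in early L2, 2.46 ± 0.13% of those in late L2 and 2.12 ± 0.12% of those in early L3 (SD, n = 5 each). The ATP synthase members accounted for close to as many reads as those of complexes I to IV together, with 47.6 ± 0.37% of the canonical reads in early L2. Complex I, with the largest number of genes, took 24.2 ± 0.21%, complex IV 14.2 ± 0.18%, complex III 9.17 ± 0.087% and complex II 4.78 ± 0.087%. Here and below, a complex means its genes that fit the naming pattern. Other listed subunits, sun and levy among them, and the cytochromes c are not in these shares. They summed to 5989 to 6424 CPM in early L2.

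**Figure D1:**
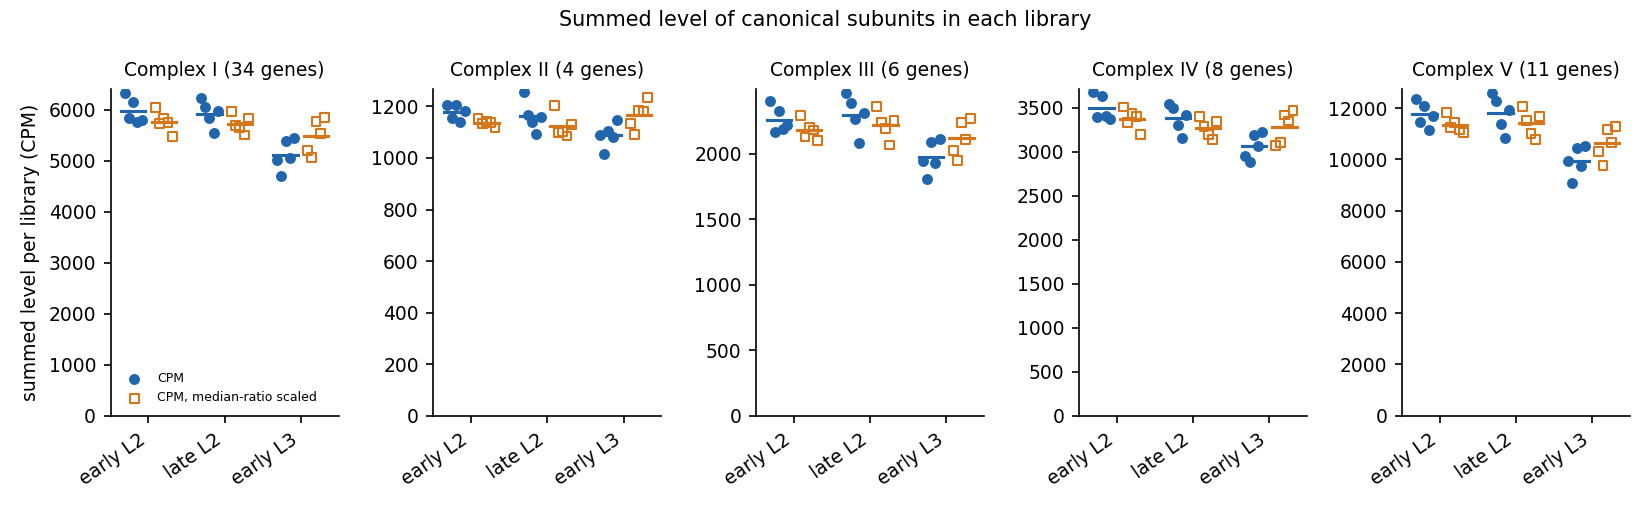
Summed level of the canonical subunits of each complex in the 15 libraries (y axis, CPM, from 0). Filled circles are CPM, open squares are the same values after median-ratio scaling, and lines are means of 5 libraries. The complex I sums were 5545 to 6227 CPM in late L2 and 4702 to 5452 CPM in early L3 without overlap, whereas the scaled values overlapped.

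Levels were compared between genes per kilobase of the canonical transcript. Complexes IV and V were the most abundant per gene, with a median of 584 and 590 CPM per kb, followed by complex III at 297, complex II at 202 and complex I at 176 CPM per kb. ATPsynC, the subunit of the membrane ring that turns as protons pass, had the highest level of any member at 1925 CPM per kb, and ATPsynbeta, the catalytic subunit, followed at 1678 CPM per kb. ATPsynF, a small membrane subunit, came next in complex V at 739 CPM per kb, and ATPsyndelta of the central stalk was lowest at 115 CPM per kb, for a gene whose canonical transcript is much longer than that of the other subunits. In complex IV the accessory subunits COX5A, COX7B and COX7A led at 841, 827 and 752 CPM per kb, and COX7C was lowest at 325 CPM per kb. In complex III the core protein UQCR-C1 led at 568 CPM per kb, ahead of UQCR-14 at 546 and the other core protein UQCR-C2 at 325 CPM per kb, and the small subunit UQCR-6.4 was lowest at 182 CPM per kb. The exon bases of UQCR-14 all lie opposite CG32576, so its reads could belong in part to that gene unless strand was used in counting.

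The 4 genes of complex II were close to each other. SdhC, a membrane anchor, had 253 CPM per kb, SdhB, the iron-sulphur subunit, 225, SdhD, the other anchor, 179, and SdhA, the flavoprotein that oxidises succinate, 174 CPM per kb. In complex I the highest levels belonged to ND-MLRQ, whose human counterpart is now placed with cytochrome c oxidase, at 554 CPM per kb, to the acyl carrier protein ND-ACP at 341 and to the accessory subunit ND-B12 at 287 CPM per kb. With ND-B8 left out, the canonical complex I genes ranged from 90.8 to 554 CPM per kb, a 6.10-fold range.

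ND-B8 was the exception among the canonical genes. Its 24 reads over 15 libraries, with at most 7 in a library and none in 4 libraries, placed its level with the testis-type paralogs rather than with the other subunits of complex I. It reached 0.211 CPM at most, did not pass the filter of 0.5 CPM in at least 1 library, and was not tested. Of its 460 exon bases, 71 lie opposite Gs1l. How the authors' counting treated such reads was not given in the sources used here, so this low count is uncertain as well.

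**Figure D2:**
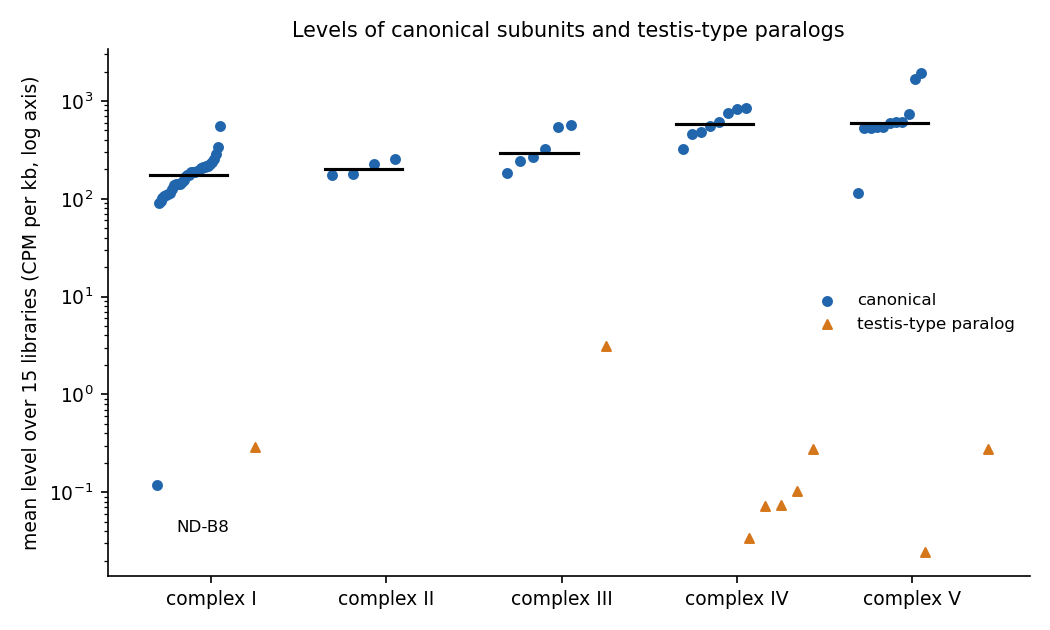
Mean level over 15 libraries of the 63 canonical subunits (circles) and 9 testis-type paralogs (triangles) by complex, in CPM per kb of the canonical transcript on a log axis, with the median of the canonical genes as a line. All canonical genes but ND-B8 lay above 90 CPM per kb, and the highest paralog, UQCR-11L, at 3.11 CPM per kb.

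The testis-type paralogs were at or near the floor at every age. Together they had 0.00974 ± 0.0011% as many reads as the canonical subunits in early L2, a share that was 0.0114 ± 0.0021% in late L2 and 0.0133 ± 0.0022% in early L3 (SD, n = 5), with overlapping ranges. UQCR-11L, the copy of a small complex III subunit, was the most abundant, with 29 to 53 reads in each library and 602 in all, and its partner UQCR-11 had 98.7 times its mean CPM. ND-51L1, the copy of the subunit that binds NADH, had 10 to 30 reads in each library, and ND-51 had 493.5 times its mean CPM. The other 7 did not reach 0.5 CPM in any library and were not tested.

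COX6AL2 had 102 reads, but 2098 of its 3130 exon bases are shared with Ir75d on the same strand. ATPsynepsilonL had 59 reads, COX7CL 51, COX4L 29, COX7AL2 27, ATPsynbetaL 23 and COX5BL 10, the last with all of its 647 exon bases opposite Trmt6. Of the 23 reads of ATPsynbetaL, 11 came from early L3 replicate 1, and 9 libraries had none. The canonical partners of these copies (COX7C, COX4, COX7A, ATPsynbeta and COX5B, and sun for ATPsynepsilonL and levy for COX6AL2) had between 1480 and 67883 times the CPM of the copy. How the authors' counting placed reads shared by close copies was not given in the sources used here, so counts this low are uncertain. Of 13 germ line and testis markers, 5 were in the table, at a summed 2.00 to 2.84 CPM for early L2, 1.03 to 2.51 for late L2 and 1.85 to 2.49 for early L3.

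Neither of the 2 paralogs tested passed the test in any comparison. ND-51L1 had 0.542, 0.834, 0.301, 0.426 and 0.574 CPM in early L2, 0.785, 1.10, 0.544, 0.653 and 0.850 in late L2 and 0.363, 0.498, 0.363, 0.638 and 0.885 in early L3. The 3 groups overlapped, and early L3 minus late L2 was -0.30 ± 0.17 on the log2 scale (standard error; limma adjusted p = 0.148). For UQCR-11L the same difference was 0.03 ± 0.14 (limma adjusted p = 0.884).

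The changes between ages were tested with limma on log2(CPM + 0.5), on which a fold change is slightly understated for low genes, over all 9787 entries that passed the filter. An entry was called at an adjusted p under 0.05 and a change of 0.5 or more in size on the log2 scale. Between early and late L2 no member was called higher or lower, where 3.38% of all tested entries were called higher and 6.51% lower. With no minimum fold change 1 member was lower, ND-B18 of complex I at -0.19 (limma adjusted p = 0.0497), where 13.8% of all entries passed as higher and 12.8% as lower. At an unadjusted p under 0.05, 0 members were higher and 1 lower, and neither edgeR nor DESeq2 called a member at the minimum fold change. The median log2 fold change of the 62 canonical subunits tested was -0.02, against 0.01 over all entries, and the complexes lay between -0.05 (complex IV) and 0.02 (complex III).

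From late L2 to early L3, when 6.45% of all entries were called higher and 18.7% lower, again no member was called in either direction. By CPM, however, the subunits lay together slightly below 0. The log2 fold change was below 0 for 62 of 62 canonical subunits, with a median of -0.21 and a range from -0.36 to -0.03, and 51 of the 64 members tested had an adjusted p under 0.05 with no minimum fold change, all lower, where 17.0% of all entries passed as higher and 37.0% as lower. These 51 were 26 of 33 in complex I, 1 of 4 in complex II, 6 of 6 in complex III, 7 of 8 in complex IV and 11 of 11 in complex V. At an unadjusted p under 0.05 the numbers were 0 higher and 53 lower, and edgeR and DESeq2 also called no member at the minimum fold change.

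The size of this shift depended on how libraries were scaled. Median-ratio scaling, which sets the typical gene to no change, moved the median of all tested entries from -0.11 to 0.02 and that of the canonical subunits from -0.21 to -0.06, with 48 below 0 and 14 above. Under it 7 members were lower and 1 was higher at an adjusted p under 0.05, where 26.8% of all entries were lower and 27.9% higher. The interquartile range of the log2 fold changes of the canonical subunits was 0.10 by CPM, against 0.54 for all tested entries, and a factor that is common to all genes of a library leaves such a spread nearly as it is. Among the 2439 entries with a mean of at least 50 CPM it was 0.51 and 23.0% were called in one direction or the other. The median log2 fold change of those entries by CPM was -0.03.

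**Figure D3:**
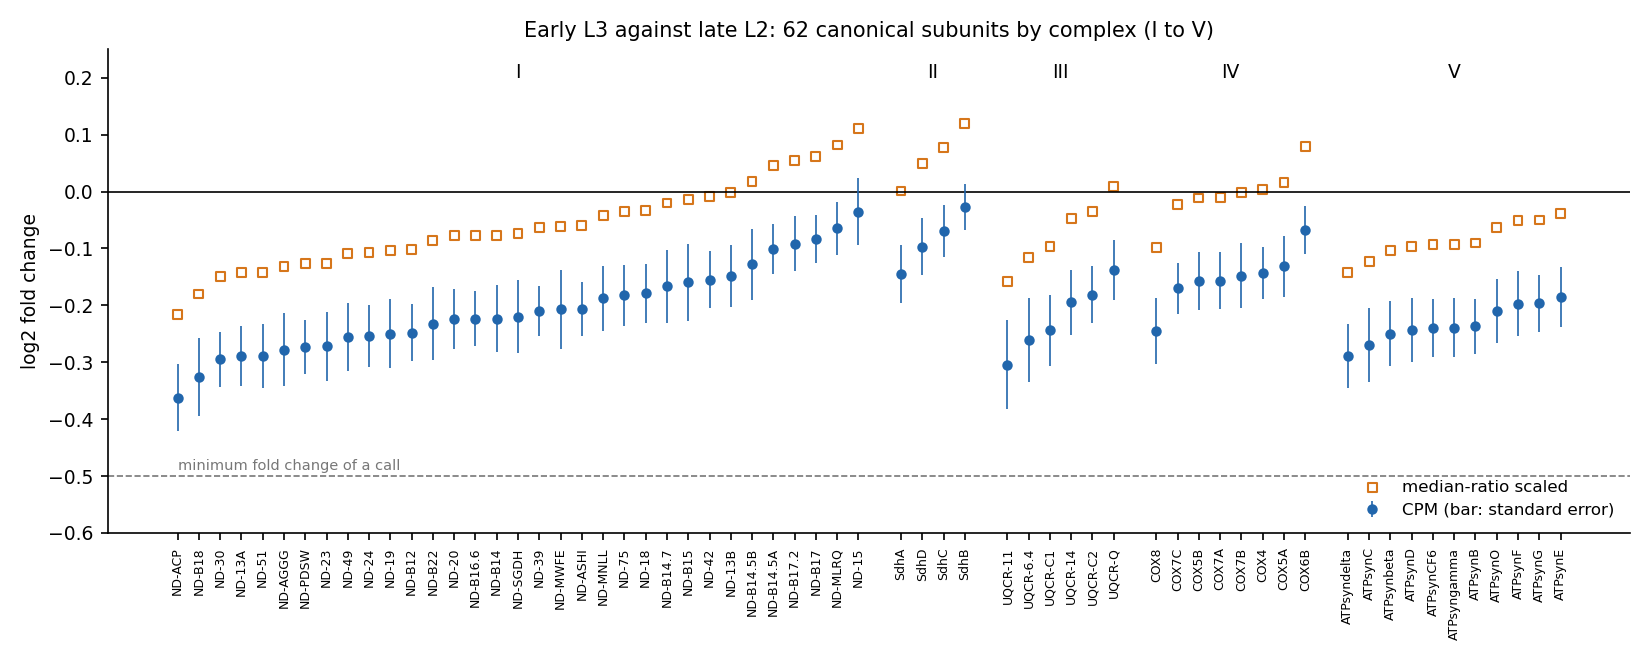
Log2 fold change of early L3 against late L2 for the 62 canonical subunits tested, by complex, as CPM (circles with standard error) and after median-ratio scaling (squares); the dashed line marks the minimum fold change of a call. All circles lie between -0.36 and -0.03, and the squares lie on both sides of 0.

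By complex, the median log2 fold change of early L3 against late L2 was -0.22 for complex I, -0.08 for complex II, -0.22 for complex III, -0.15 for complex IV and -0.24 for complex V by CPM. After median-ratio scaling the same medians were -0.07, 0.06, -0.07, -0.01 and -0.09. Complex II was thus below 0 on one scale and above it on the other, and complex V was below 0 on both. A comparison that no scaling can move is the share that the members of each complex take of the canonical reads of their own library. Subunits outside the naming pattern are in neither part of that share.

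Complex II took 4.64 to 4.87% of the canonical reads in early L2, 4.60 to 4.82% in late L2 and 4.97 to 5.21% in early L3, with every early L3 library above all L2 libraries. Complex IV took 13.92 to 14.41% in early L2, 13.62 to 13.91% in late L2 and 14.12 to 14.82% in early L3, and the late L2 libraries lay below both other groups. Complex V had 47.15 to 48.18% in early L2, 47.5 to 48.3% in late L2 and 46.5 to 47.4% in early L3, so that early L3 overlapped early L2 but not late L2. Complexes I and III overlapped between late L2 and early L3, at 23.9 to 24.4% against 23.9 to 24.3% and at 9.16 to 9.47% against 9.25 to 9.41%. These shares are a description with no test, and they differed little between ages, since complex V, with the largest share, had a mean of 48.0 ± 0.34% in late L2 and 46.9 ± 0.34% in early L3 (SD, n = 5).

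**Figure D4:**
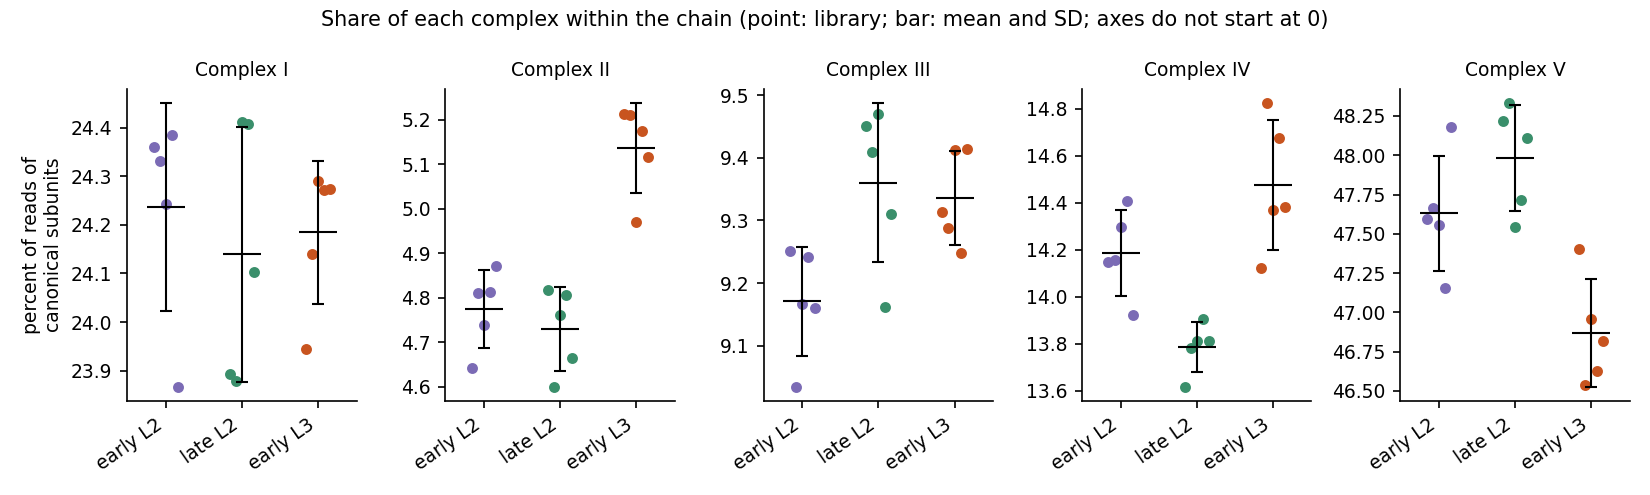
Percent of the reads of canonical subunits taken by each complex in each of the 15 libraries, with the mean and SD of 5 libraries; the axes do not start at 0. Early L3 libraries lay above late L2 libraries in complexes II and IV and below them in complex V.

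From early L2 to early L3, 1 member was called, ND-B18 of complex I, and it fell. The background was 9.86% of entries called higher and 24.3% lower. With no minimum fold change 54 members were lower and 0 higher, where 22.3% of all entries passed as higher and 42.7% as lower. These were 27 of 33 in complex I, 2 of 4 in complex II, 6 of 6 in complex III, 8 of 8 in complex IV and 11 of 11 in complex V. After median-ratio scaling 18 members were lower and 2 higher, SdhB and ND-15, where 31.7% of all entries were higher and 32.8% lower, and the median of the canonical subunits moved from -0.21 to -0.06. At an unadjusted p under 0.05 by CPM the numbers were 0 higher and 55 lower, and edgeR and DESeq2 called no member at the minimum fold change.

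ND-B18 is an accessory subunit of complex I. It had 104, 109, 107, 109 and 95.6 CPM in early L2, 102, 102, 91.8, 79.9 and 86.0 CPM in late L2, and 72.2, 68.2, 78.3, 71.2 and 77.0 CPM in early L3. Each early L3 library lay below every library of the other groups, and the L2 groups overlapped. Such separation was not particular to ND-B18. By CPM, early L3 lay below late L2 without overlap for 26 of 62 canonical subunits, and below early L2 for 37. The share over all entries was not counted. The log2 fold change from early L2 to early L3 was -0.52 ± 0.068 (limma adjusted p = 8.29e-06), close to the threshold of 0.5, and was -0.37 after median-ratio scaling, which ended the call, as did leaving out early L3 replicate 2, at -0.49. Its share of canonical reads was 0.394 to 0.462% in early L2, 0.347 to 0.402% in late L2 and 0.341 to 0.353% in early L3.

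ND-51, the subunit of complex I that takes electrons from NADH, had 363, 333, 344, 329 and 331 CPM in early L2, 332, 328, 325, 295 and 322 in late L2 and 258, 232, 287, 254 and 283 in early L3. The early L3 libraries were the lowest, and the decrease from late L2 was -0.29 ± 0.056 on the log2 scale (limma adjusted p = 0.000452), or -0.14 after median-ratio scaling (limma adjusted p = 0.033). Both values lie below the fold of a call.

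SdhB behaved otherwise. It had 269, 263, 282, 267 and 280 CPM in early L2, 294, 271, 277, 266 and 278 CPM in late L2, and 265, 255, 279, 274 and 287 CPM in early L3. The 3 groups overlapped by CPM, at -0.03 ± 0.041 from late L2 to early L3 (limma adjusted p = 0.599). After median-ratio scaling it was the single member higher in that comparison, by 0.12 (limma adjusted p = 0.0208), and its share of canonical reads was 1.07 to 1.17% in late L2 and 1.26 to 1.31% in early L3, without overlap.

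ND-15, an accessory subunit of complex I, was singled out after its values were seen. It was the other member higher from early L2 to early L3 after median-ratio scaling. Its share of canonical reads was 0.341 to 0.376% in early L2, 0.375 to 0.413% in late L2 and 0.422 to 0.462% in early L3, and only the L2 groups overlapped. A larger share in every early L3 library than in any L2 library was not particular to SdhB and ND-15. ND-B17, COX6B and SdhD also had it. Across the 15 libraries the level of ND-15 by CPM had a Pearson correlation of 0.285 with the median of the other canonical subunits, the lowest of the 62. SdhB had the next lowest, at 0.505, and the median over subunits was 0.943. These correlations share library scaling and stage, and after median-ratio scaling the median was 0.815. The order also changed after that scaling, with SdhB lowest at 0.042, then ND-MLRQ at 0.168 and ND-15 at 0.182.

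Of the members with the highest level per kb in their complex, ATPsynC, COX5A and UQCR-C1 passed from late L2 to early L3 at an adjusted p under 0.05 alone, and ND-MLRQ and SdhC did not. SdhA, the lowest of complex II, was the gene of that complex that passed. ATPsynC had 3810, 3683, 3787, 3358 and 3686 CPM in early L2, 3946, 3832, 3461, 3312 and 3748 CPM in late L2 and 3058, 2719, 3238, 2966 and 3195 CPM in early L3. The early L3 libraries lay below all others, with a log2 fold change from late L2 of -0.27 ± 0.066 (limma adjusted p = 0.00262) that was -0.12 after median-ratio scaling (limma adjusted p = 0.0915). COX5A had 654, 660, 602, 566 and 655 CPM in late L2 and 563, 532, 593, 579 and 594 CPM in early L3, with overlapping groups and a log2 fold change of -0.13 ± 0.053 (limma adjusted p = 0.0485). UQCR-C1 had a log2 fold change of -0.24 ± 0.062 (limma adjusted p = 0.00377) and SdhA one of -0.15 ± 0.051 (limma adjusted p = 0.025). ND-MLRQ did not pass, with -0.06 ± 0.046 (limma adjusted p = 0.254).

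Whether the later change differed from the earlier one was tested as their difference. No member was called, where 6.50% of all entries were called higher and 18.4% lower. With no minimum fold change 7 members had an adjusted p under 0.05, all more negative from late L2 to early L3 than within L2, where 9.45% of all entries passed as higher and 26.8% as lower. At an unadjusted p under 0.05 the numbers were 0 higher and 25 lower. The 7 were ND-ACP, ND-PDSW, ND-AGGG, ND-13A and ND-30 of complex I, UQCR-11 and ATPsynbeta, and without the 2 libraries that lay apart there were 16. Single libraries also moved this count, to 24 without late L2 replicate 4, 15 without early L2 replicate 1, 13 without early L3 replicate 5 and 11 without early L3 replicate 3, and after median-ratio scaling only ND-ACP remained, where 15.9% of all entries were higher and 20.0% lower.

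ND-ACP carries the acyl chains of mitochondrial fatty acid synthesis and is also a subunit of complex I. It had 284, 250, 272, 244 and 261 CPM in early L2, 287, 282, 285, 253 and 284 CPM in late L2, and 218, 192, 230, 210 and 233 CPM in early L3. All early L3 libraries lay below the L2 libraries, which overlapped, a separation that other canonical subunits also had. The difference between the changes was -0.45 ± 0.10 (limma adjusted p = 0.00306), and its adjusted p stayed between 0.00152 and 0.0162 in 28 alternative fits. Its share of canonical reads was 1.03 to 1.09% in early L2, 1.10 to 1.19% in late L2 and 0.984 to 1.04% in early L3, so that late L2 stood above both other groups on a measure that scaling does not touch.

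The other genes of the pathway were taken from lists by role. Of 10 listed subunits outside the naming pattern and cytochromes c, 9 were in the table and 7 were tested. None was called from late L2 to early L3, where 18.7% of all entries were called lower. All 7 were lower at an adjusted p under 0.05 alone, as were 37.0% of all entries, and the median log2 fold change was -0.26. Cytochrome c, Cyt-c-p, the carrier between complexes III and IV, was called lower from early L2 to early L3, from 633 ± 64 to 410 ± 57 CPM (SD, n = 5; log2 fold change -0.63, and -0.48 after median-ratio scaling, which ended the call). It was the 1 called of the 7, where 24.3% of all entries were called lower. Cyt-c-d and Cyt-c1L, the other cytochrome genes of the list, were at a mean of 0.056 and 0.058 CPM and were not tested.

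The 13 protein-coding genes of the mitochondrial genome were all in the table, and 11 were tested. They summed to 35988 to 42441 CPM for early L2, 35756 to 41717 for late L2 and 29348 to 32725 for early L3, more than the nuclear subunits at each age. None was called from late L2 to early L3, although 10 were lower at an adjusted p under 0.05 alone, as were 37.0% of all entries, and the median of their log2 fold changes was -0.34, or -0.20 after median-ratio scaling. Reads of the mitochondrial genome per read of canonical nuclear subunits were 1.48 to 1.79, 1.37 to 1.84 and 1.42 to 1.51 in the 3 ages, and the groups overlapped. The libraries were made from polyadenylated RNA, and the poly(A) selection acts on mitochondrial transcripts as well.

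Calls were found among the genes that build or regulate the chain. Of 10 regulators, 5 were called lower and none higher from late L2 to early L3, where 18.7% of all tested entries were called lower and 6.45% higher, and 0 of 62 canonical subunits were called in the same fit. Of 14 assembly factors tested, 7 were called lower and none higher, beside the same 18.7 and 6.45% of all entries. At an adjusted p under 0.05 alone 13 were lower, where 37.0% of all entries were, and the median of the log2 fold changes was -0.50. Without early L3 replicate 2 the count of 7 was 4. No regulator or assembly factor was called within L2. The difference between these lists and the subunits was not tested.

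Among the regulators, srl encodes the fly PGC-1 coactivator of mitochondrial genes. It had 71.4 to 101 CPM for early L2, 71.9 to 109 for late L2 and 19.9 to 34.5 for early L3, with no overlap between L2 and early L3, and a log2 fold change from late L2 of -1.62 (limma adjusted p = 7.22e-07). PolrMT, the mitochondrial RNA polymerase, fell from 54.5 to 68.2 CPM to 16.1 to 30.7 CPM, a log2 fold change of -1.37. Myc, the growth regulator, fell by 1.65 on the log2 scale, from 140 to 170 CPM to 34.0 to 75.4 CPM. TFAM, which packages mitochondrial DNA, had a log2 fold change of -0.68, and the mitochondrial transcription factor mtTFB1 one of -0.56. After median-ratio scaling these were -1.48, -1.23, -1.51, -0.54 and -0.41 in the same order, and the last no longer passed the fold of a call. Hnf4, a nuclear receptor that acts on mitochondrial genes, had a log2 fold change of 0.34 (limma adjusted p = 0.000232) and is named although it was not called.

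Measured against the canonical subunits of the same library, srl had 29.0 to 43.0 reads per 10000 in late L2 and 9.54 to 15.9 in early L3. The same ratio was 22.3 to 26.9 and 7.72 to 13.8 for PolrMT. For TFAM it was 21.9 to 27.4 and 16.0 to 19.5. The groups did not overlap for any of the 3 genes.

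Among the assembly factors, bsf, whose product binds mitochondrial messenger RNA, had 249 to 327 CPM in late L2 and 101 to 158 CPM in early L3, a log2 fold change of -1.10. Bcs1, which inserts the iron-sulphur protein into complex III, had one of -0.78, and ECSIT, an assembly factor of complex I, one of -0.76. Cox17 and Cox10, which serve copper delivery and heme synthesis for complex IV, had -0.58 and -0.55. Sdhaf3 of complex II and Coa7 of complex IV had -0.53 and -0.51. After median-ratio scaling bsf, Bcs1 and ECSIT kept their calls, at -0.96, -0.64 and -0.62, and the other 4 were below the fold of a call.

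**Figure D5:**
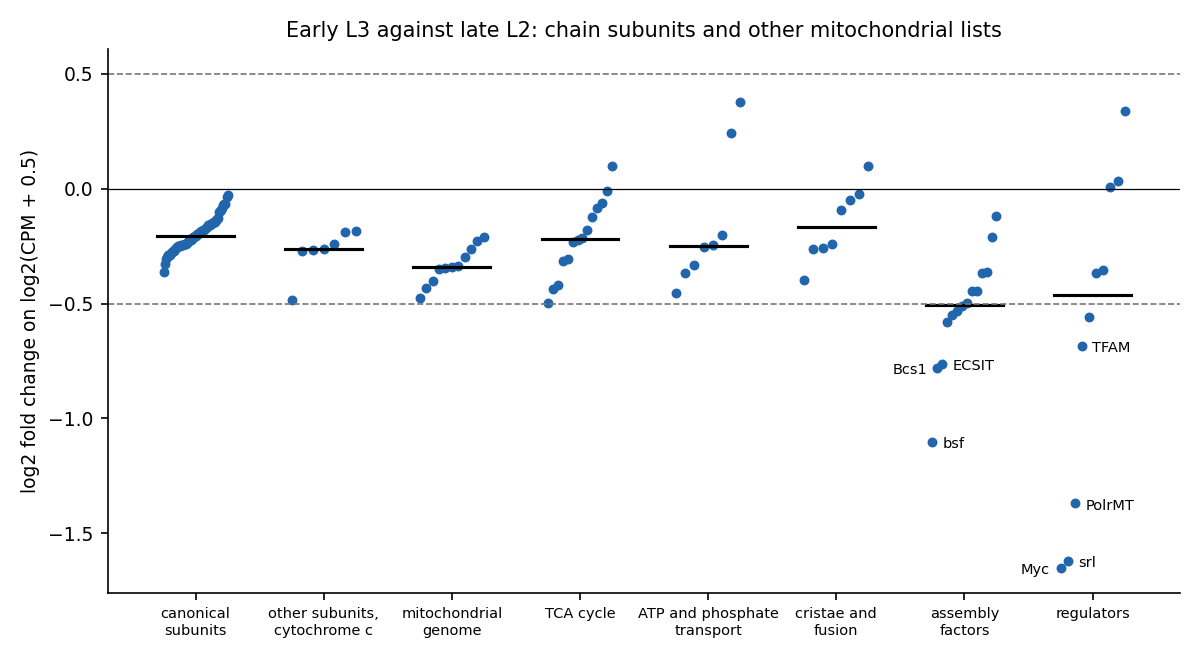
Log2 fold change of early L3 against late L2, on log2(CPM + 0.5), for each tested gene (points) of the canonical subunits and of 7 other lists, with the median of each list as a line; dashed lines mark the minimum fold change of a call. The canonical subunits spanned -0.36 to -0.03, and srl, Myc, PolrMT and bsf lay below -1.

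In the tricarboxylic acid cycle and pyruvate dehydrogenase, which supply NADH and succinate to the chain, no gene of 14 was called within L2 or from late L2 to early L3. Of all entries, 6.51% and 18.7% were called lower in these comparisons, and 3.38% and 6.45% higher. At an adjusted p under 0.05 alone 5 and 8 of the 14 were lower, where 12.8% and 37.0% of all entries were. From early L2 to early L3, 3 were called lower: Idh3b, a subunit of isocitrate dehydrogenase, at -0.75, and the pyruvate dehydrogenase subunits Pdhb and Pdha at -0.62 and -0.53. These 3 of 14 are no larger a share than the 24.3% of all entries called lower in that comparison. After median-ratio scaling these were -0.60, -0.47 and -0.38, and Idh3b alone kept its call. Of 8 genes of ATP and phosphate transport and uncoupling tested, the mitochondrial carriers Ucp4A and Bmcp were called from early L2 to early L3, Ucp4A higher at 0.56 and Bmcp lower at -0.58, or -0.43 after median-ratio scaling, beside 9.86% of all entries called higher and 24.3% lower. Of 8 genes of the cristae and of fusion and fission, CG6403 was called lower within L2, at -0.59, where 6.51% of all entries were called lower, and from early L2 to early L3, at -0.61, or -0.46 after median-ratio scaling, which ended that call. None was called from late L2 to early L3.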

How the data were processed

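Midgut mRNA of 15 libraries, 5 per age, was measured by sequencing of stranded, polyadenylated RNA libraries. The authors deposited CPM for each entry and library. The build BDGP6 and the tools STAR 2.7.10a, Salmon 1.5.2, Trim Galore 0.6.7, DESeq2, MultiQC 1.11, FastQC and Picard are listed in the notes of the submitters on processing, without role or order, and use of strand in counting was not given in the sources used here. The second deposited table holds the authors' own comparisons and was not used.

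The CPM values are whole reads over a library total, since 100% of the 166854 values above 0 gave whole reads within 0.001. Library totals were 23981806 to 33902298 reads, so counting error matters mainly for the testis-type paralogs. Read counts cover counting error only. The 9787 of 12133 entries that reached 0.5 CPM in 1 library or more were tested with limma 3.58.1 in R 4.3.3, with an intensity trend and all 15 libraries in 1 fit, on log2(CPM + 0.5), and p-values were adjusted by the Benjamini-Hochberg method over all of them. Calls needed an adjusted p under 0.05 and a change of 0.5 or more in size on the log2 scale. edgeR 4.0.16 and DESeq2 1.42.0 were run on the recovered reads as alternatives, beside other scalings, filters and pseudocounts, a replicate block and fits that each left out 1 library. The fits were tested on simulated data for the 2 successive comparisons. A set log2 change of 0.25 passed at an adjusted p under 0.05 in 26 to 32% of changed genes and was called in 0 to 2%. Calls reached 34 to 40% for a change of 0.5 and 92 to 98% for 0.7. Of the genes that passed at an adjusted p under 0.05, 4.4 to 6.4% had no change set.

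Ages are the labelled groups, and replicates are separate pools of midguts. The members and lists were chosen with earlier results of these data known. Symbols of 5 members, written with Greek letters, were read by gene ID, and lengths came from the canonical transcripts of Ensembl 115. Named were members called in any comparison, the 3 highest and the lowest subunit per kb in each complex, paralogs of at least 0.5 CPM with their partners, and the called genes of the other lists. The last were to be at most 4 per list and comparison, and the further regulators and assembly factors called are named as well. ND-15, the other members with a p-value for the difference of the changes, and the genes named though not called were chosen after their values were seen. Promoter and protein sequences were not analysed here. The values of 1 gene of the assembly factor list are not reported here.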

Additional observations from a re-analysis of the deposited data

Results flagged for a closer look

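In 5 groups of 5 libraries, 1 library stood apart from the other 4 for a member named in the text, with a gap over 0.71 of the group's range. ATPsynC had 3358 CPM in early L2 replicate 4, where the others had 3683 to 3810. Late L2 replicate 4 was lowest for COX7C, with 272 CPM against 288 to 290, for ND-51, with 295 CPM against 322 to 332, and for ND-ACP, with 253 CPM against 282 to 287. SdhC had 207 CPM in early L3 replicate 2, where the others had 219 to 223. In all, 96 groups were examined, for the named members and for the summed levels of the complexes, the canonical subunits and the paralogs. Chance places about 1 in 20 past this limit. Over all members, 10 of 216 groups were past it.

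For 3 named members the change from late L2 to early L3 differed from that between early and late L2 in the limma test of the difference. The difference was -0.29 on the log2 scale for ATPsynbeta (limma adjusted p = 0.0302), -0.45 for ND-ACP (limma adjusted p = 0.00306) and -0.38 for UQCR-11 (limma adjusted p = 0.0394). Late L2 entered both changes. Among 28 alternative fits the adjusted p was under 0.05 in 28 for ND-ACP, from 0.00152 to 0.0162, in 19 for ATPsynbeta, from 0.0029 to 0.217, and in 12 for UQCR-11, from 0.00321 to 0.223.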

How the results depend on the processing

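Of 30 alternatives, all but the one with no minimum fold change left 0 members called between early and late L2 and from late L2 to early L3. With no minimum fold change 1, 51 and 54 members were lower within L2, from late L2 to early L3 and from early L2 to early L3, and 7 in the difference of the changes. The 1 call from early L2 to early L3 was 0 with median-ratio or TMM scaling, edgeR, DESeq2 or a minimum log2 fold change of 1, and 0 to 1 when single libraries were left out. The difference, with 0 calls, had 1 with quantile normalization and 1 without the 2 libraries that lay apart, and 0 to 1 when single libraries were left out. The counts at adjusted p alone, edgeR on library totals and the fit without the 2 libraries were chosen after seeing the data. At adjusted p alone, the 1 member lower within L2 became 0 with a pseudocount of 0.1, no filter, TMM, edgeR (on either total), no intensity trend, a replicate block or without the 2 libraries, and 3 with quantile normalization, and was 0 to 1 when single libraries were left out. From late L2 to early L3, 7, 11, 11 and 9 members were lower with median-ratio scaling, TMM, edgeR and DESeq2, and 1 was higher under each of these. With no filter 1 member was also higher, by CPM. It was not a canonical subunit that passed the filter, since all of those were below 0 by CPM. From early L2 to early L3, 18, 18, 16 and 20 were lower and 2 higher in the same order, and 1 was higher with quantile normalization. For the difference the order gave 1, 2, 2 and 1, quantile normalization and the fit without the 2 libraries gave 16 each, and leaving out single libraries gave 5 to 24, the 24 without late L2 replicate 4. Medians of complexes I to V from late L2 to early L3 were -0.073, 0.063, -0.072, -0.0057 and -0.092 with median-ratio scaling, -0.086, 0.051, -0.085, -0.018 and -0.10 with TMM, -0.080, 0.050, -0.084, -0.017 and -0.10 with edgeR and -0.066, 0.064, -0.071, -0.0030 and -0.091 with DESeq2, and quantile normalization gave -0.32 for complex V. From early L2 to early L3 they were -0.079, 0.018, -0.052, -0.037 and -0.11, then -0.072, 0.024, -0.045, -0.031 and -0.11, then -0.072, 0.024, -0.044, -0.029 and -0.11, and -0.078, 0.018, -0.051, -0.036 and -0.11 in the same order, and quantile normalization gave -0.19, -0.27 and -0.37 for complexes II, IV and V. The median of the 2 paralogs tested was 0.081 with quantile normalization from late L2 to early L3, and 0.37, 0.28 and 0.29 with quantile normalization, edgeR and DESeq2 from early L2. Assembly factors called lower, 7 from late L2 and 5 from early L2 to early L3, were 3 and 2 with median-ratio scaling, TMM, edgeR and DESeq2, and 4 and 3 with quantile normalization. Leaving out single libraries gave 4 to 8 and 3 to 6, the 4 without early L3 replicate 2 and the 3 without early L3 replicate 2 or 4. The cause of these shifts was not tested. Replicate numbers did not pair the samples. The deviations of same-numbered libraries correlated at -0.18 to 0.21 (median 0.034, 15 pairs) and those of other pairs at -0.26 to 0.27 (median -0.0080, 60 pairs). With the replicate block 48, 54 and 7 members were lower from late L2 and from early L2 to early L3 and in the difference. Depth limits only the paralogs and ND-B8, where a library held few reads.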

Other observations

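Markers of other cell types that the midgut samples could hold were also summed. Enteroendocrine markers (pros, Tk, AstC, Dh31 and NPF) had 101 to 128 CPM in early L2, 59.4 to 87.8 CPM in late L2 and 51.2 to 56.5 CPM in early L3. Copper cell markers had 216 to 255, 215 to 233 and 218 to 250 CPM in the same order. Tracheal markers had 47.0 to 98.8, 65.2 to 150 and 26.5 to 42.5 CPM. The 1 progenitor marker in the table had 2.02 to 3.20, 3.92 to 4.95 and 4.63 to 6.25 CPM. The 2 hemocyte markers in the table summed to 0.0723 to 0.236, 0.510 to 1.27 and 0.509 to 2.23 CPM. Fat body markers were at 0.0417 CPM or less in every early L2 library and reached 144 CPM in late L2 and 165 CPM in early L3, with at least 1 library of each age at 0. The part of these cell types in the results was not tested.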
